A study of Mus musculus with 6 samples.

Results

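The genes described here encode the machinery that brings secretory and membrane proteins into the endoplasmic reticulum (ER) and attaches N-linked glycans to them. The 34 genes were chosen by name as subunits of the signal recognition particle, its receptor, the Sec61 channel with Sec62 and Sec63, the TRAP complex with TRAM1, the signal peptidase and the oligosaccharyltransferase. Probes were assigned to them through the RefSeq accession in the array files, and all 34 were found among the 23462 genes named on the array. All 34 were also well above background on all 6 arrays, so no member was lost to the filter on dim probes, and they make up 34 of the 27102 rows tested (a row is a named gene, or a probe without a gene name).

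The study compared isolated pancreatic acinar cells of C57BL/6 mice of 2 genotypes, with 3 samples of each and 1 array per sample. The KC samples carried Ptf1aCre, which drives recombination in the pancreatic epithelial lineage, and an oncogenic allele that stays silent until Cre removes a stop cassette. The KCS samples carried both of these and Setdb1flox/flox, so the Cre and the oncogenic allele were shared by all samples and the floxed histone methyltransferase gene Setdb1 was the difference. Cells that never expressed Ptf1a, such as immune and stromal cells, keep Setdb1 in this design. Age was not given in the sources used here, nor whether each sample came from its own animal, so p-values measure the spread between these samples, which may be technical.

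Acinar cells make digestive enzymes in bulk and have one of the most developed rough ERs of any cell. A signal sequence emerging from the ribosome is bound by the signal recognition particle, which docks at its receptor on the ER membrane, and the chain is then passed into the Sec61 channel. Signal peptidase removes the signal sequence, and the oligosaccharyltransferase transfers a preassembled glycan to asparagine residues of the growing or completed chain.

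The deposited signal is an intensity, and its log2 minus the 75th percentile of its array, here called the scaled log2 signal, was compared between the groups. The arrays differed widely in their distribution. That percentile lay at 61.2 to 68.6 scanner units on the KC arrays and at 347 to 423 on the KCS arrays, and the 100 brightest probes held 34.4 to 37.4% of the signal in KC and 13.4 to 14.6% in KCS. Between 26550 and 27237 probes were well above background on a KC array, and between 35366 and 35920 on a KCS array. The Setdb1 probe gave -0.91, -1.05 and -0.32 in KC and -0.28, -0.44 and -0.55 in KCS, groups that overlap (log2 difference 0.33 ± 0.24 SE, limma adjusted p = 0.270). Whether that probe lies in the floxed part is not known, so it does not check the labels.

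Relative to the 75th percentile, most of the ER entry machinery was lower in KCS than in KC. Of the 34 genes, 23 were called lower (limma, adjusted p below 0.05), 2 were called higher and 9 were not called, and when the arrays were scaled to spike-in controls all of the lower ones but Sec11c had positive values, as described further on. Over all rows tested, 60.3% were called, 34.4% lower and 25.9% higher. Log2 fold changes ran from -2.93 for Sec11c to 1.64 for Tusc3. Their median was -1.12, with the middle of the distribution between -1.68 and -0.39, against a median of -0.19 and a middle between -1.19 and 0.81 for all rows. The 3 KC values lay above the 3 KCS values without overlap in 26 genes and below them in 2, where 38.4% and 29.8% of all rows separated in these directions, and 68.2% in either. These are bulk samples, in which fewer cells of a type and less RNA per cell cannot be told apart.

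**Figure D1:**
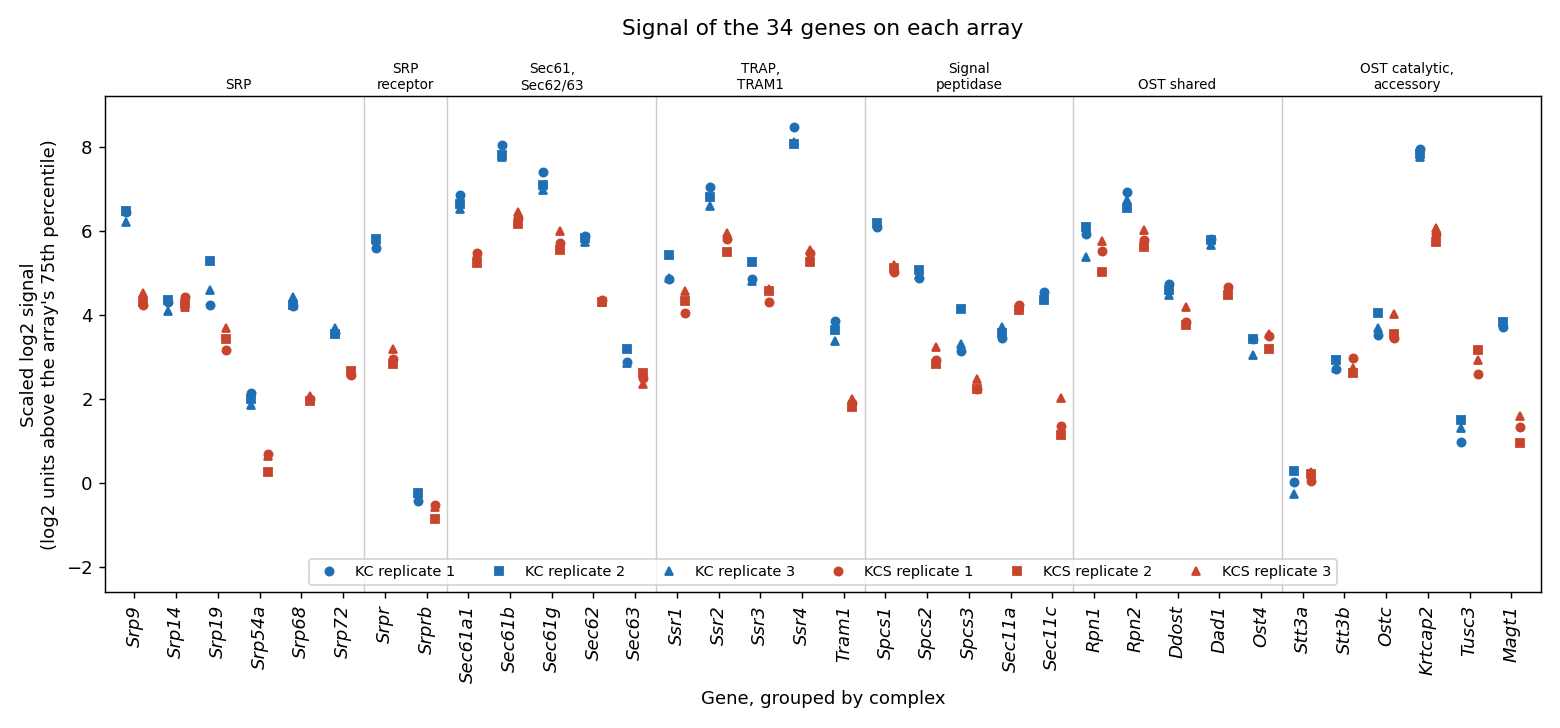
Scaled log2 signal (log2 units above the array's 75th percentile, y axis) of each of the 34 genes (x axis, grouped by complex) on the 3 KC arrays (blue) and the 3 KCS arrays (red), 1 point per array. In 26 genes every blue point lies above every red point, in Sec11a and Tusc3 every red point lies above every blue one, and heights of different genes are not comparable because each is read by another probe.

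**Figure D2:**
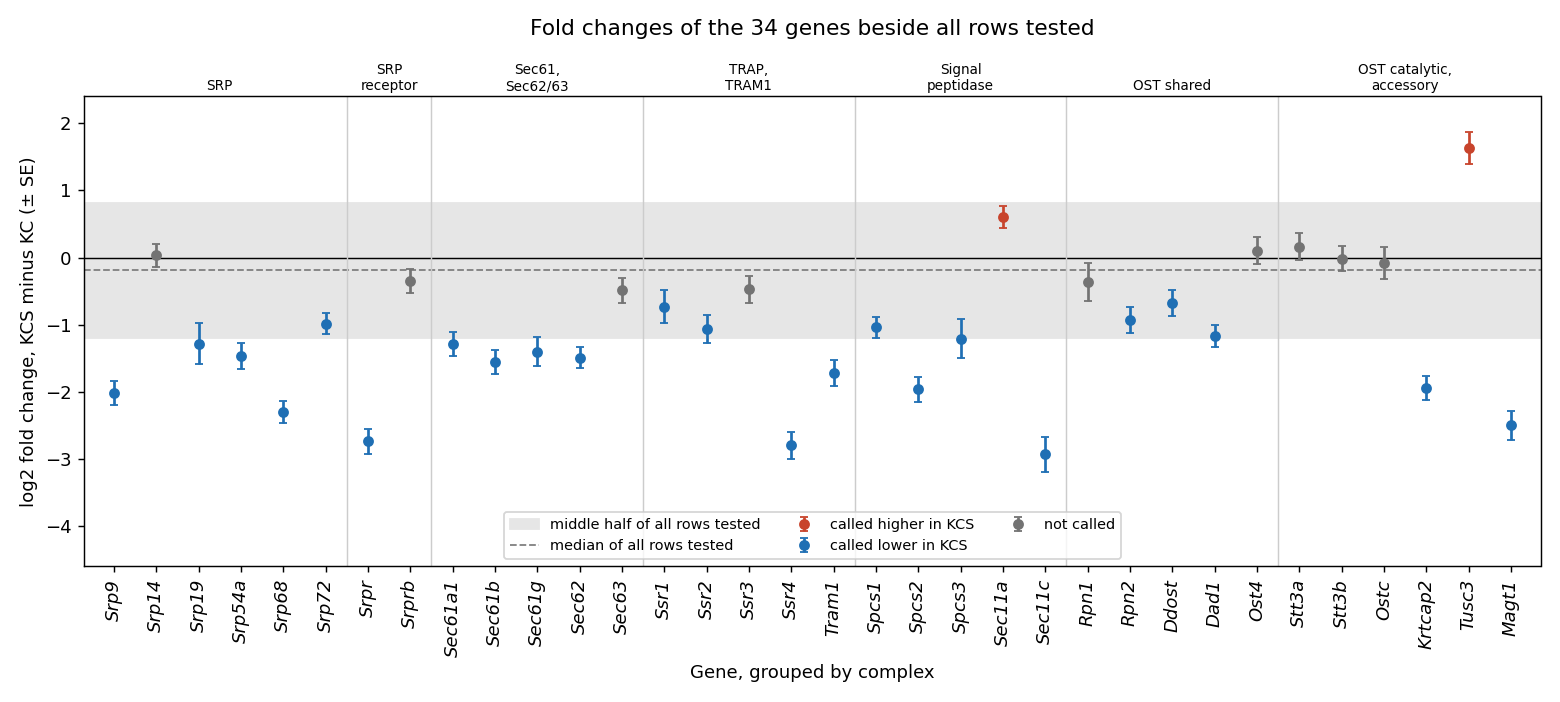
Log2 fold change, KCS minus KC, on the 75th percentile scale (y axis, bars ± SE of the limma fit) for the 34 genes (x axis, grouped by complex), with the median of all 27102 rows as a dashed line and their middle range in grey. Blue marks the 23 genes called lower, red the 2 called higher and grey the 9 not called; under spike-in scaling 33 of the 34 points would lie above 0.

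The signal recognition particle is an RNA-protein particle with 6 protein subunits, and 5 of these were called lower in KCS, although all 6 had positive values under spike-in scaling. The exception was Srp14, whose product pairs with SRP9 in the domain that slows translation. Srp14 read 4.30, 4.36 and 4.10 in KC and 4.42, 4.26 and 4.18 in KCS. Its groups overlap, and the difference was 0.03, with a 95% interval from -0.38 to 0.45 (adjusted p = 0.884). With background corrected by normexp Srp14 was called higher (0.71, limma adjusted p = 0.00172). Its partner Srp9 read 6.45, 6.47 and 6.21 in KC and 4.25, 4.30 and 4.52 in KCS. The 2 groups of Srp9 are well apart, with a log2 fold change of -2.02 ± 0.18 (SE; adjusted p = 2.61e-04), and a second Srp9 probe gave -1.72.

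The remaining 4 subunits form the domain that recognises signal sequences and binds the receptor. The scaffold subunit Srp68 read 4.22, 4.24 and 4.43 in KC and 1.99, 1.94 and 2.07 in KCS. That is a log2 fold change of -2.29 ± 0.16 (adjusted p = 1.48e-04), and the groups lie far apart compared with their spread. Its binding partner Srp72 differed by less, with -0.99 ± 0.16 (adjusted p = 0.00217) for the brightest probe and -1.16 and -1.62 for the other 2 probes. Srp54a encodes the GTPase that holds the signal sequence. It read 2.14, 1.99 and 1.87 in KC and 0.69, 0.27 and 0.63 in KCS (-1.47 ± 0.20, adjusted p = 0.00104). Srp54b and Srp54c are near-identical copies of Srp54a and may share its probes' signal, so the value of one gene among the 3 is uncertain. Their own probes gave 0.04 and -1.54. Srp19, which helps assemble the particle, read 4.25, 5.29 and 4.58 in KC and 3.17, 3.43 and 3.68 in KCS. Its KC values are more scattered, and the log2 fold change was -1.28 ± 0.31 (adjusted p = 0.0115).

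The receptor of the particle has 2 subunits, and 1 of them was called lower. Srpr, the alpha subunit and the GTPase that meets SRP54, read 5.59, 5.81 and 5.78 in KC and 2.94, 2.84 and 3.19 in KCS. At -2.74 ± 0.18 (adjusted p = 1.24e-04) it was among the members with the largest decrease on this scale, and a second probe gave -2.91. Srprb, the beta subunit that anchors the receptor in the membrane, read -0.44, -0.23 and -0.25 in KC and -0.53, -0.84 and -0.57 in KCS. The groups do not overlap, but the difference of -0.34 ± 0.18 was not called (adjusted p = 0.139). Its probes disagreed in size, since a second Srprb probe gave -1.49 (adjusted p = 4.51e-04), and the mean of both gave -0.92 (adjusted p = 0.00343).

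All 3 subunits of the Sec61 channel were called lower in KCS, together with Sec62; on the spike-in scale the values of all 4 were positive. The pore-forming subunit Sec61a1 read 6.86, 6.65 and 6.51 in KC and 5.47, 5.23 and 5.46 in KCS (-1.29 ± 0.18, adjusted p = 0.00134), and its other 2 probes gave -1.87 and -2.14. The small tail-anchored subunit Sec61b read 8.05, 7.81 and 7.77 in KC and 6.31, 6.17 and 6.46 in KCS (-1.56 ± 0.18, adjusted p = 6.10e-04). Sec61g, the other small subunit, had a log2 fold change of -1.40 ± 0.21 (adjusted p = 0.00169). Quantile normalization reduced these values to -0.67 for Sec61a1, -0.48 for Sec61b and -0.60 for Sec61g. Sec62, which helps post-translational entry and carries small secretory proteins, read 5.88, 5.84 and 5.75 in KC and 4.37, 4.31 and 4.30 in KCS (-1.49 ± 0.16, adjusted p = 4.41e-04). Its partner Sec63, which recruits the ER chaperone BiP to the channel, read 2.89, 3.19 and 2.86 in KC and 2.50, 2.62 and 2.36 in KCS. Those groups do not overlap, and the difference of -0.49 ± 0.18 just missed the threshold (adjusted p = 0.0572), whereas a second Sec63 probe gave -0.92 (adjusted p = 0.00638) and quantile normalization brought the first past the threshold (adjusted p = 0.0435).

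The TRAP complex sits beside the channel and helps some signal sequences to open it. Its 4 subunits, Ssr1 to Ssr4, differed in size, and 3 of them were called lower, with positive values for all 4 under spike-in scaling. Ssr4, the delta subunit, read 8.48, 8.08 and 8.13 in KC and 5.47, 5.26 and 5.56 in KCS. Its log2 fold change of -2.80 ± 0.19 (adjusted p = 1.40e-04) compares with -1.07 ± 0.21 for Ssr2 (adjusted p = 0.00503) and -0.73 ± 0.24 for Ssr1 (adjusted p = 0.0381). Ssr3, the gamma subunit, read 4.85, 5.26 and 4.82 in KC and 4.32, 4.57 and 4.61 in KCS. It was not called (-0.48 ± 0.20, adjusted p = 0.0820), although its groups do not overlap and a second probe gave -0.92 (adjusted p = 0.00817). The Ssr1 call was lost without KC replicate 2 (adjusted p = 0.0928), KC replicate 3 (0.0565), KCS replicate 1 (0.111) or the second KCS array (0.0939), and also under quantile normalization (0.105) and median centring (0.211). Ssr2 lost its call under quantile normalization (adjusted p = 0.1603). Tram1, a membrane protein that contacts nascent chains as they enter, read 3.85, 3.64 and 3.38 in KC and 1.91, 1.80 and 2.01 in KCS (-1.71 ± 0.19, adjusted p = 5.52e-04).

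Signal peptidase has a catalytic subunit, which is either SEC11A or SEC11C, and 3 accessory subunits. The catalytic genes went opposite ways on the 75th percentile scale. Sec11c read 4.55, 4.36 and 4.43 in KC and 1.37, 1.15 and 2.03 in KCS. This was the largest decrease of the 34 genes on that scale, at -2.93 ± 0.26 (adjusted p = 2.68e-04), a 7.62-fold difference. Sec11a read 3.46, 3.56 and 3.70 in KC and 4.24, 4.12 and 4.19 in KCS. It was called higher, by 0.61 ± 0.16 (adjusted p = 0.0180), but this call rests on a narrow margin. A second Sec11a probe gave 0.33 (adjusted p = 0.170), and the call was lost when KC replicate 1 (adjusted p = 0.0512), KCS replicate 1 (0.0569) or the second KCS array (0.0522) was left out. Under spike-in scaling Sec11c differed by -0.03 (limma adjusted p = 0.919) and Sec11a by 3.50, so the sign of Sec11c lost its support. The distance between the 2 genes cannot change under this scaling, which shifts all genes of an array by the same amount.

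The 3 accessory subunits were all called lower on the 75th percentile scale, and all had positive values on the spike-in scale. Spcs2 read 4.88, 5.06 and 4.96 in KC and 2.93, 2.84 and 3.23 in KCS (-1.97 ± 0.18, adjusted p = 3.05e-04). Spcs1 read 6.10, 6.19 and 6.17 in KC and 5.01, 5.13 and 5.19 in KCS (-1.04 ± 0.16, adjusted p = 0.00183). Spcs3, which is needed for the enzyme's activity, read 3.15, 4.13 and 3.32 in KC and 2.25, 2.25 and 2.47 in KCS (-1.21 ± 0.29, adjusted p = 0.0111). KC replicate 2 stands above the other KC arrays in Spcs3, as it does in Srp19.

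The oligosaccharyltransferase exists in 2 forms that share a core. Of the 5 shared subunits, Rpn2, Ddost and Dad1 were called lower, Rpn1 and Ost4 were not, and all 5 had positive values under spike-in scaling. Dad1, a small subunit named for its defence against cell death, read 5.82, 5.78 and 5.66 in KC and 4.67, 4.47 and 4.63 in KCS (-1.16 ± 0.16, adjusted p = 0.00132), and a dimmer Dad1 probe gave -2.77. Rpn2, ribophorin II, had a log2 fold change of -0.93 ± 0.20 (adjusted p = 0.00678), which quantile normalization reduced to -0.21 (adjusted p = 0.363). Ddost had -0.67 ± 0.19 (adjusted p = 0.0223), and its call was lost when KC replicate 1 (0.0619), KCS replicate 1 (0.0669) or the second KCS array (0.0855) was left out, under quantile normalization (0.0504) and under median centring (0.207). Ribophorin I, the product of Rpn1, presents substrates to the enzyme. Rpn1 read 5.92, 6.09 and 5.39 in KC and 5.52, 5.03 and 5.76 in KCS. These values overlap widely, and the interval of the difference ran from -1.05 to 0.31 (adjusted p = 0.299). The small subunit Ost4 also overlapped, with a difference of 0.10 and an interval from -0.38 to 0.59 (adjusted p = 0.678).

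The form-specific subunits of the oligosaccharyltransferase differed most among themselves, with a median of -0.05, 2 called lower, 1 called higher and 3 not called. The catalytic genes were not called. Stt3a, whose enzyme works on chains still in the channel, read 0.02, 0.28 and -0.25 in KC and 0.05, 0.21 and 0.27 in KCS, with an interval of the difference from -0.33 to 0.65 (adjusted p = 0.516). Stt3b, whose enzyme also glycosylates sites that were skipped, read 2.71, 2.93 and 2.75 in KC and 2.98, 2.63 and 2.73 in KCS, with an interval from -0.45 to 0.42 (adjusted p = 0.947). In both genes the groups overlap.

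STT3A works with OSTC and KRTCAP2, and STT3B with either TUSC3 or MAGT1, which are oxidoreductases. Krtcap2 read 7.95, 7.84 and 7.77 in KC and 5.92, 5.74 and 6.07 in KCS (-1.94 ± 0.18, adjusted p = 2.73e-04). Ostc read 3.53, 4.04 and 3.70 in KC and 3.46, 3.55 and 4.01 in KCS, which overlap, with an interval from -0.65 to 0.48 (adjusted p = 0.777). The exchangeable STT3B partners moved in opposite directions on the 75th percentile scale. Magt1 read 3.72, 3.84 and 3.83 in KC and 1.33, 0.96 and 1.60 in KCS (-2.50 ± 0.21, adjusted p = 2.33e-04), a 5.66-fold decrease. Tusc3 read 0.97, 1.51 and 1.31 in KC and 2.60, 3.17 and 2.92 in KCS (1.64 ± 0.24, adjusted p = 0.00143), a 3.11-fold increase. Tusc3 was called higher under every scaling tried, whereas Magt1 had 0.40 under spike-in scaling (adjusted p = 0.208).

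A ratio of 2 genes on the same array does not depend on how that array is scaled by a constant, so related genes were set against each other within arrays. Only the change of such a ratio between groups can be read, since the probes differ in brightness. The log2 ratio of Tusc3 to Magt1 was -2.75, -2.33 and -2.52 in KC and 1.27, 2.22 and 1.32 in KCS, a change of 4.14 or 17.6-fold. The log2 ratio of Sec11c to Sec11a was 1.09, 0.80 and 0.72 in KC and -2.88, -2.97 and -2.16 in KCS, a change of -3.54 or 11.6-fold. Neither pair overlapped between groups. The ratio of Stt3a to Stt3b changed by 0.18, with overlapping values (exact two-sided permutation p = 0.5).

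Members of the list were also set against close relatives outside it. The ratio of Tram1 to Tram2, its less studied relative, was 5.99, 4.58 and 4.54 in KC and 1.94, 1.78 and 2.23 in KCS, a change of -3.06, or -1.52 with background corrected by normexp. That of Sec61a1 to Sec61a2, the other gene for the pore subunit, was 7.68, 7.65 and 6.95 in KC and 5.43, 5.17 and 5.69 in KCS, a change of -2.00, or -1.41 under quantile normalization and -0.82 under normexp. For Tram1 and Sec61a1 and for the pairs of Tusc3 and Sec11c, the exact two-sided permutation test over samples gave p = 0.1 each, the smallest that 3 against 3 allows, and 0.125 after adjustment over the 5 pairs, so none could pass 0.05.

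**Figure D3:**
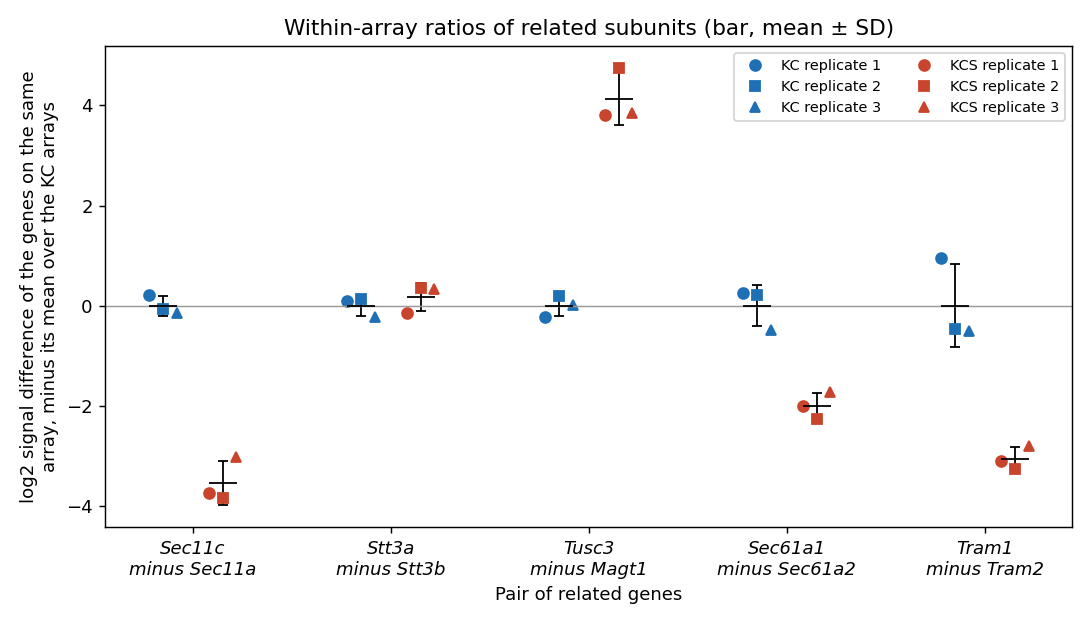
Log2 signal difference of 2 related genes on the same array, minus its mean over the KC arrays (y axis), for 5 pairs (x axis) on the KC arrays (blue) and KCS arrays (red); bars are the group mean ± SD of 3 arrays. The KCS points of Tusc3 minus Magt1 lie about 4.14 above 0, those of Sec11c minus Sec11a about 3.54 below it in log2 units, and those of Stt3a minus Stt3b overlap the KC points.

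Promoter sequence was read for the members whose RefSeq entry (GRCm38.p6) was in the table used, 25 of the 34. Shown are the 120 bases before the annotated start of 4 genes, on the strand of the gene and ending at the base before the start: 3 with the largest decreases among those with an entry, and Sec11a, which was called higher. Capitals mark ACGTG or its reverse complement CACGT, the core of elements bound by the ER stress factors XBP1 and ATF6 and by other bZIP and bHLH factors. The regions are chrX:73786903-73787022 on the plus strand for Ssr4, chr9:35211083-35211202 on the plus strand for Srpr, chrX:106011803-106011922 on the minus strand for Magt1 and chr7:80947551-80947670 on the minus strand for Sec11a.
Ssr4: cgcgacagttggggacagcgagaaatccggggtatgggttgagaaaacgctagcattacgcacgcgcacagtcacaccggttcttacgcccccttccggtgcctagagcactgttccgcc
Srpr: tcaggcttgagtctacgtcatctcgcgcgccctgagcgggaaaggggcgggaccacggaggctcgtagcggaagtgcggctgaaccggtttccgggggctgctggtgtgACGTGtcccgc
Magt1: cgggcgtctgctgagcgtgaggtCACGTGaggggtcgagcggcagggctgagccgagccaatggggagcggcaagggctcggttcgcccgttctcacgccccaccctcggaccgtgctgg
Sec11a: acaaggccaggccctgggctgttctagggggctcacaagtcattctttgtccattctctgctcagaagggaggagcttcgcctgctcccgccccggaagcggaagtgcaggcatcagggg

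Within 250 bases before the start, the core ACGTG was found on either strand in 12 of the 25 members, or 48%, against 18.5% of the 27025 genes with an entry. The 12 were Srp14, Srp54a, Srpr, Srprb, Sec62, Sec63, Ssr1, Ssr3, Spcs1, Dad1, Krtcap2 and Magt1. Of the 16 called lower that had an entry, 8 held it, and Ssr4, with one of the largest decreases, did not. Srp14, Srprb, Sec63 and Ssr3 held it and were not called. The full ER stress element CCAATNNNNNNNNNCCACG was in none of the 25 and in 0.130% of all genes, and the shorter element ATTGGNCCACG was in none of the 25 and in 0.0370% of all genes. Both strands were searched, and overlapping matches counted. The 27025 genes were not limited to those measured here or matched for base composition, and the difference in share was not tested. A match is a description of these letters and not a sign of binding.

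The scale on which the arrays are set decides the direction of most of these differences. Scaled to the E1A spike-in controls, 29 of the 34 genes were called higher in KCS and none lower, where 87.2% of all rows were called higher and 2.85% lower. The members' median was then 1.78 and that of all rows 2.70, so the members again lay below the rest, by -0.92 as on the 75th percentile scale. The 5 not called on the spike-in scale were Srp68, Srpr, Ssr4, Sec11c and Magt1, all among those with large decreases on the other scale. With each array centred on its median, 21 were called lower and 2 higher, against 26.0% and 33.8% of all rows. Quantile normalization gave 20 lower and 2 higher, against 29.3% and 29.1% of all rows. It made the decreases of several bright members smaller, besides the Sec61 subunits, with -1.87 for Ssr4, -0.33 for Ssr2, -0.57 for Spcs1 and -0.98 for Krtcap2.

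On the 75th percentile scale, 27 of the 34 genes lay below the median of all rows, and this depended on the rows they were set against and on the background correction. With no filter on dim probes, 53.5% of all rows were called lower, the median of all rows was -1.16 and 17 of the 34 genes lay below it. With only probes well above background on all 6 arrays, 42.7% of rows were called lower and 24.7% higher. Their median was -0.36, and 26 of the 34 genes lay below it. With background corrected anew by normexp on the median signals, 18 genes were called lower, where 55.0% of all rows were, and 6 higher, where 24.95% were. The calls of Srp19, Ssr1, Ssr2, Spcs3, Rpn2 and Ddost were then lost, and 14 of the 34 lay below the median of all rows. Newly called higher were Srp14 (0.71, limma adjusted p = 0.00172), Ost4 (0.69, 0.00393), Stt3b (0.51, 0.0098) and Ostc (0.57, 0.0286), and Srprb was called lower (-0.38, 0.0166). The members' position relative to the rest of the transcriptome was therefore not kept across these settings, while the 75th percentile, array median and spike-in scales leave it unchanged by construction.

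**Figure D4:**
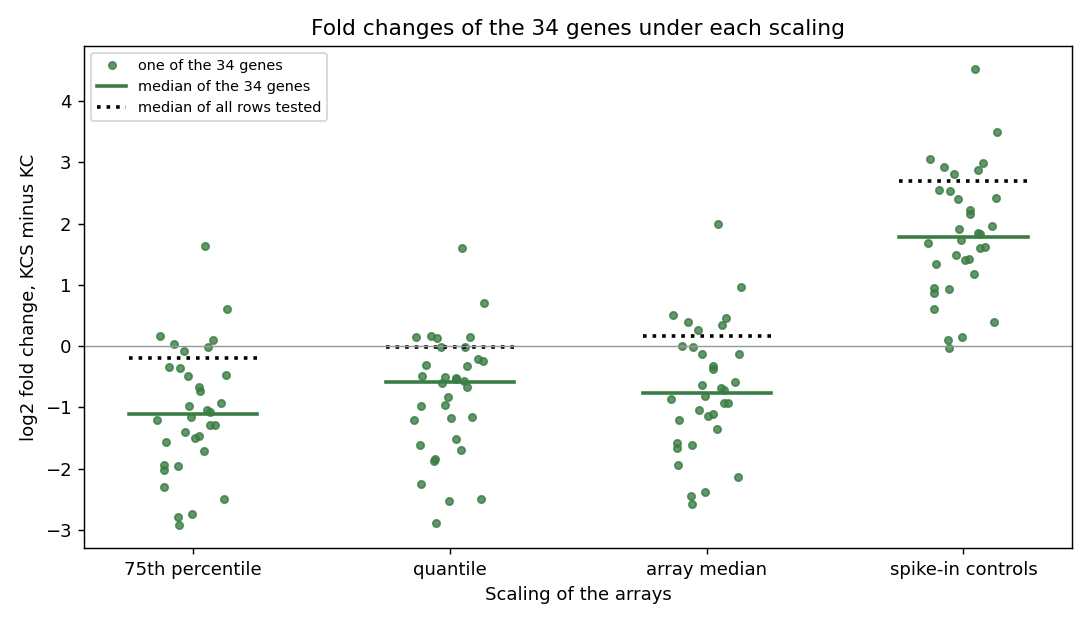
Log2 fold change, KCS minus KC (y axis), of the 34 genes under 4 ways of scaling the arrays (x axis), 1 point per gene, with the median of the 34 genes as a green line and of all rows tested as a dotted line. The genes' median lies below that of all rows in each of the 4, at -1.12 against -0.19 for the 75th percentile and at 1.78 against 2.70 for the spike-in controls, where nearly all points lie above 0.

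Replicates of the members were close. The median SD over 3 arrays was 0.149 in KC and 0.170 in KCS, against 0.306 and 0.272 over all rows. KCS replicate 3 had the highest value of the 3 KCS arrays in 23 of the 34 genes, and the members' median signal was 3.67, 3.65 and 4.10 on the KCS arrays against 4.64, 4.82 and 4.53 on the KC arrays. Without KCS replicate 3 the counts were 23 lower and 2 higher, with a median of -1.17. With each of the 2 slides taken by itself, 28 genes were lower in KCS on both and 4 were higher on both. Only replicate 1 of either group was on the first slide, so a difference there compares single arrays. How many of all rows keep their direction between slides was not counted, so these numbers do not set the members apart. Of the 16 members read by several probes, 15 had the same sign in every probe, the exception being Stt3a, and 11 had the same call.

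Markers of cell types moved with the groups. All 8 acinar markers were called lower in KCS. Their summed signal, as a log2 on the same scale, lay between 14.2 and 14.5 on the KC arrays and at -0.74, 2.43 and 10.1 on the KCS arrays. The acinar label is thus borne out in KC, while KCS replicates 1 and 2 hold little of these transcripts and KCS replicate 3 holds more. Pnlip, pancreatic lipase, and Ptf1a were well above background on 1 of 3 KCS arrays. All 7 macrophage markers were called higher, with sums of 4.40 to 5.10 in KC and 8.17 to 8.65 in KCS, and so were all 7 fibroblast markers, with 7.61 to 8.01 and 10.02 to 10.33. Among 7 ductal markers 3 were called higher and 1 lower, with sums of 5.76 to 6.20 and 8.05 to 8.41. Endothelial markers were called higher in 4 of 5 (3.57 to 3.83 and 4.53 to 5.33) and neutrophil markers in 3 of 5 (1.02 to 1.77 and 3.58 to 5.10). All 6 islet markers were called lower (9.83 to 10.04 and 7.07 to 7.93), as were 3 of 4 T and NK cell markers, with 1 higher (3.37 to 4.36 and 1.47 to 3.001). The probe used for Cd3d gave -1.91, but another Cd3d probe gave 3.54, while another Cd3e probe gave -4.66. The spike-in scale raises every log2 fold change by the same amount, which took Sec11c from -2.93 to -0.03. Smaller decreases, as of the islet markers (-1.62 to -2.82), Cd3e (-2.16), Cd3d, Cd4 (-1.52) and Muc1 (-2.50), would be positive on it. Those of the acinar markers (-8.80 to -16.6) would stay negative.

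Plasma cells also have a large ER, and their markers were mixed, with 2 of 7 called higher and 2 lower (sums of 8.38 to 8.90 in KC and 6.74 to 7.15 in KCS). Those sums were carried by the brightest probes, Xbp1 (mean 8.21 in KC and 6.71 in KCS) and, in KC, Derl3 (6.55). They are therefore not a level of plasma cells. The B-lineage markers Jchain and Ms4a1 were not above background on any KC array. The higher ones were Sdc1, a surface proteoglycan also found on epithelium (4.43, adjusted p = 9.66e-05), and Jchain (adjusted p = 0.0150), which was well above background on all 3 KCS arrays. The lower ones were Xbp1, a regulator of ER capacity that acinar cells also express (-1.50, adjusted p = 0.00198), and Derl3, an ER degradation factor (-6.28, adjusted p = 0.00251). On the spike-in scale Xbp1 would be positive, and Derl3 would stay negative. The part of these cell types in the differences of the 34 genes was not tested.

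The neighbouring steps of the pathway were less uniform. Of 67 further genes of ER entry, membrane insertion and glycan assembly, 66 were measured, 25 were called lower, 7 higher and 34 not, with a median of -0.29. The share called lower is near the 34.4% of all rows, and the share called higher is under their 25.9%. With each array centred on its median these counts were 16 lower and 14 higher, where 26.0% and 33.8% of all rows were called, so the share lower is again near that of all rows. Under spike-in scaling none was called lower and 63 higher, where 2.85% and 87.2% of all rows were. In the group of other targeting and translocon genes, 8 of 14 were called lower and 2 higher, with a median of -1.05. The lower ones include Tmem258, a subunit of the oligosaccharyltransferase. Sil1, the exchange factor of BiP, read 5.86, 5.92 and 5.73 in KC and 3.34, 3.26 and 3.74 in KCS (-2.39 ± 0.20, adjusted p = 2.09e-04). Nomo1, part of a channel-associated complex for multipass proteins, had -2.20 ± 0.17 (adjusted p = 1.78e-04), and Dnajc1, a BiP co-chaperone at the ribosome, had -1.45 ± 0.17 (adjusted p = 6.24e-04). These 3 were positive under spike-in scaling. The higher ones were the relatives Tram2 (1.34 ± 0.33, adjusted p = 0.0129) and Sec61a2 (0.71 ± 0.21, adjusted p = 0.0269). The Sec61a2 call was lost when KC replicate 1 (0.0677), KC replicate 2 (0.0724), KCS replicate 1 (0.0759) or the second KCS array (0.0903) was left out.

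The EMC complex inserts membrane segments that Sec61 handles poorly, and 5 of its 10 genes were called lower and 1 higher. Over all rows 34.4% were called lower and 25.9% higher. Emc9 had -1.97 ± 0.18 (adjusted p = 2.87e-04), Emc6 -1.53 ± 0.19 (adjusted p = 8.19e-04) and Emc10 -0.78 ± 0.15 (adjusted p = 0.00519), all positive under spike-in scaling, and the Emc10 call was lost under median centring (0.0739). Emc3, the insertase subunit, had 0.54 ± 0.18 (adjusted p = 0.0370), a call that was lost when any array but KC replicate 2 was left out (adjusted p from 0.0807 to 0.0994) and under quantile normalization (0.0514). In the GET pathway, which inserts tail-anchored proteins, the median was -0.06. There 2 of 7 genes were called lower, a share below the 34.4% of all rows. These were Ubl4a with -1.81 ± 0.19 (limma adjusted p = 4.65e-04) and Get4 with -1.37 ± 0.17 (adjusted p = 7.31e-04). Both act in the cytosolic complex that hands tail-anchored proteins on, and both were positive under spike-in scaling.

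The enzymes that build the lipid-linked glycan had a median of -0.20, close to the -0.19 of all rows, with 8 of 22 called lower, also near the share over all rows, and 1 higher. The mannosyltransferase genes Alg1 (-1.42 ± 0.17, adjusted p = 6.46e-04), Alg3 (-1.36 ± 0.19, adjusted p = 0.00138) and Alg11 (-1.18 ± 0.17, adjusted p = 0.00151) led the lower ones, although a second Alg3 probe gave -0.15 and all 3 were positive under spike-in scaling. Srd5a3, which makes dolichol, the lipid carrier of the glycan, read -0.49, -0.45 and -0.27 in KC and 1.38, 1.41 and 1.24 in KCS (1.75 ± 0.17, adjusted p = 3.27e-04). Among 8 genes of glycan trimming and quality control, 2 were called lower and 1 higher, shares below the 34.4% and 25.9% of all rows. Glucosidase I, encoded by Mogs, removes the first glucose. Mogs had -1.44 ± 0.19 (adjusted p = 9.55e-04). Prkcsh, the beta subunit of glucosidase II, read 3.95, 3.79 and 3.86 in KC and 6.07, 5.87 and 5.48 in KCS (1.93 ± 0.21, adjusted p = 4.85e-04). Uggt1, which marks unfolded glycoproteins with glucose, had -0.65 ± 0.16 (adjusted p = 0.0131), and its call was lost without the second KCS array (0.0579), under quantile normalization (0.0726) and under median centring (0.181); Mogs and Uggt1 were positive under spike-in scaling. Of the 5 GPI transamidase genes, which attach lipid anchors after ER entry, none was called lower and Pigs (1.45 ± 0.17, limma adjusted p = 6.59e-04) and Pigu (1.05 ± 0.21, adjusted p = 0.00549) were called higher. These 5 genes are few to set against the 34.4% lower and 25.9% higher of all rows.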

How the data were processed

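Total RNA of 6 samples was amplified, labelled with Cy3 and hybridised to 1-colour Agilent arrays, per the labels' protocols. Agilent Feature Extraction 12.0.3.1 turned the scans into spot values, per the submitters' processing notes, and the deposited intensity is background-corrected, per the file headers. The deposited value table of the authors holds log2 values of the same arrays and served as an alternative.

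Values were the log2 intensity minus each array's 75th percentile over non-control probes. Marked outlier spots were left out, no spot was saturated, and a probe's spots were averaged. The test kept probes that 3 or more of the 6 arrays held well above background. Names came from RefSeq accessions (33767 of 56605 probes), and the probe with the highest mean stood for a gene. limma 3.58.1 in R 4.3.3 compared KCS with KC without covariates, with Benjamini-Hochberg adjustment over 27102 rows at 0.05, and was tested on simulated data. Pair ratios used exact permutation tests (scipy 1.17.1). The precision is limited by the number of arrays, 3 per group.

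The members and lists were chosen with earlier results of these data known. Named genes are every member and, from each other list, up to 3 called genes per direction with the smallest p-values. Alternatives covered scaling, background, filter, probe choice, outlier spots, variance model, weights, replicate and slide blocks, and each array left out. The name of 1 allele is not reported here.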

Additional observations from a re-analysis of the deposited data

How the results depend on the processing

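The count of 2 members called higher became 29 under spike-in scaling, 6 under normexp on median signals, and 1 with probes averaged per gene, with every probe on its own (all of them called), on the second slide alone or at an adjusted p below 0.01, and ranged from 1 to 2 with single arrays left out. The 23 called lower became 0 under spike-in scaling, ranged from 21 to 23 with single arrays left out, and from 18 to 26 over the other alternatives. For the 66 other pathway genes, the 7 higher became 14 under median centring, 63 under spike-in scaling and 23 under normexp (5 to 7 with arrays left out), and the 25 lower became 16 under median centring and 0 under spike-in scaling (21 to 26 with arrays left out). The members' median was -0.59 under quantile normalization, -0.76 under median centring, 1.78 under spike-in scaling and -0.43 under normexp, and -1.19 to -1.03 with arrays left out. The median of all rows was 0.16 under median centring, 2.70 under spike-in scaling, -0.61 under normexp and -1.16 with no filter, and -0.23 to -0.16 with arrays left out.

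Spike-in scaling turned the sign of Srp9 (0.87), Srp19 (1.61), Srp54a (1.43), Srp68 (0.60), Srp72 (1.91), Srpr (0.16), Srprb (2.55), Sec61a1 (1.61), Sec61b (1.34), Sec61g (1.496), Sec62 (1.40), Sec63 (2.41), Ssr1 (2.17), Ssr2 (1.83), Ssr3 (2.42), Ssr4 (0.10), Tram1 (1.18), Spcs1 (1.85), Spcs2 (0.93), Spcs3 (1.68), Rpn1 (2.53), Rpn2 (1.96), Ddost (2.22), Dad1 (1.73), Stt3b (2.88), Ostc (2.81), Krtcap2 (0.95), Magt1 (0.40), Nomo1 (0.70), Sil1 (0.51), Dnajc1 (1.44), Emc9 (0.92), Emc6 (1.36), Emc10 (2.12), Ubl4a (1.09), Get4 (1.53), Alg1 (1.47), Alg3 (1.54), Alg11 (1.72), Mogs (1.45) and Uggt1 (2.24). Normexp turned Sec63 (0.15), Ssr3 (0.22), Rpn1 (0.34), Stt3b (0.51), Ostc (0.57) and Uggt1 (0.032). Median centring turned Srprb (0.0092), Stt3b (0.34) and Ostc (0.27), quantile normalization Rpn1 (0.13), and the mean of probes Stt3a (-0.025). Stt3b was 0.27 on the first slide alone, which holds 1 array per group, and Srp14 was -0.012 on the second alone. With 1 array left out, Srp14 ranged from -0.043 (without KC replicate 3) to 0.086, Ost4 from -0.023 (KC replicate 3) to 0.22, Stt3b from -0.12 to 0.059 (KCS replicate 2) and Ostc from -0.25 to 0.058 (KC replicate 2). The cause of these changes was not tested.

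The ratio of Stt3a to Stt3b changed by -0.37 under normexp and -0.0099 with the mean of probes. That of Sec61a1 to Sec61a2 changed by -1.41 under quantile normalization, -0.82 under normexp and -2.61 with the mean of probes, and that of Tram1 to Tram2 by -1.52 under normexp. With arrays left out, the ratios of Sec11c to Sec11a, Tusc3 to Magt1, Sec61a1 to Sec61a2, Tram1 to Tram2 and Stt3a to Stt3b changed by -3.79 to -3.39, 3.83 to 4.30, -2.23 to -1.87, -3.30 to -2.58 and 0.06 to 0.34.

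Replicate numbers are shared by the groups, and deviations of same-numbered samples correlated at 0.33, 0.04 and 0.14 over rows. Replicate 1 of both groups also shares the first slide, so for that pair number and slide cannot be told apart. The main fit used no pairing. KCS replicates 1 and 3 correlated best with their own number, and KCS replicate 2 did not (0.18 with KC replicate 3). With the replicate block, 23 members were called lower and 2 higher, the members' median stayed at -1.12, and 25 and 5 of the other genes were called, with Emc3 (adjusted p = 0.0659) and Sec61a2 (0.0578) losing their calls. With the slide as a block the counts were 23 and 2, and 25 and 8. The planned normexp on mean signals was not run, as only median signals were among the columns used; the version on medians was chosen after seeing the data, as was the first slide alone.

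Probes read differently bright targets, so levels of different genes were not compared. The spike-in scale rests on equal addition of the controls to each RNA, which was not tested. With 3 arrays a group, exact tests cannot reach 0.05.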
